A study of Mus musculus with 6 samples.

Results

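Transcription factor genes that mark place along the gut were followed in the small intestinal mucosa of alk-SMase KO and WT mice. They are Gata4, Gata6, Cdx1, Cdx2, Hnf4a, Hnf4g, Onecut2 and Osr2, chosen by symbol, and all 8 were found among the 12402 genes whose rows could be named in a table of 22700 rows. The KO group had 3 libraries (K79S, K82S, K86S) and the WT group 3 (W83S, W89S, W90S), and each came from the middle small intestinal mucosa of 1 mouse, all of the C57BL/6 strain. The KO mice lacked exon 2 of Enpp7, the gene of alkaline sphingomyelinase, after deletion with the Cre-loxP system, and the WT mice carried no such change. No treatment is named for either group, and the ages and sexes of the mice were not given in the sources used here. Mucosa is a mixture of cells, so fewer cells of a type and less RNA per cell cannot be told apart in these values.

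The epithelium of the small intestine keeps different tasks in its upper and lower parts, and transcription factors maintain this order. GATA4 is known for its role in the duodenum and jejunum, where it holds jejunal genes on and ileal genes off, and its relative GATA6 is made along the whole small intestine. CDX1 and CDX2 are homeodomain proteins that give the epithelium its intestinal character, and HNF4A and HNF4G are nuclear receptors that drive enterocyte genes of the brush border and of lipid transport. ONECUT2 is a cut homeodomain protein known from the proximal small intestine, and OSR2 is a zinc finger protein of the odd-skipped family.

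The deposited table sets gene identifiers beside the values of other genes, and the rows were named again by rank. Identifiers ordered by the K79S value printed beside them follow the rows ordered by W83S, with small shifts along the ranking. The number of printed decimals, which marks rows of a single transcript by at most 6 decimals, showed how well this holds. Among placed genes with the same identifier version as GENCODE M21, 99.8% of 3533 with a single transcript and 1.68% of 7817 with several had such short values. Over all placed genes, other versions included, these shares were 99.67% of 3649 and 5.80% of 8748. Within 50 ranks of each of the 8 genes, decimals and transcript numbers fitted for 91.1% (Hnf4a) to 97.0% (Osr2) of genes, and for at most 67.2% when the rows were shifted by 1 to 3 places. Gata6 and Onecut2 carry an older identifier version in the table, and their own decimals do not match the transcript number of GENCODE M21. Cdx1 and Gata4 lie closest to the end of a stretch of constant shift, at 16 and 24 ranks.

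In mm10 the genes lie apart from each other. Gata4 is on chromosome 14 (minus strand, 63198922 to 63271692), Cdx2 on chromosome 5 (minus strand, 147300805 to 147307270), Hnf4a on chromosome 2 (plus strand, 163506808 to 163572910), Hnf4g on chromosome 3 (plus strand, 3508030 to 3658052) and Osr2 on chromosome 15 (plus strand, 35296098 to 35303305). The handling of strand was not given in the sources used here, so reads of Gata6 and of 1010001N08Rik, a noncoding gene on the opposite strand with shared exonic bases, cannot be told apart. Hnf4aos, antisense to Hnf4a, overlaps its span but shares no exonic base with it, and had 3.90 to 6.21 FPKM against 129 to 235 FPKM for Hnf4a.

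The sequences before the starts of Cdx2 and Hnf4a are shown because only these 2 of the 8 genes had a promoter window in the sequences used here. Hnf4a has 2 start sites, which a value for the whole gene adds together. The sequences are taken from RefSeq (GRCm38.p6) and end at the base before the transcript, with whole matches in capitals. Letters searched on both strands of the RefSeq windows of 300 bases were AGATAA for GATA factors, CAAAGTCCA for HNF4, GTTAAT for HNF1 and TTTATG for CDX, and none of the matches found overlap each other. Of 32851 such windows 11.2% hold the GATA letters, 0.47% the HNF4 letters, 7.10% the HNF1 letters and 11.85% the CDX letters.
Cdx2, chr5:147307271-147307499, minus strand: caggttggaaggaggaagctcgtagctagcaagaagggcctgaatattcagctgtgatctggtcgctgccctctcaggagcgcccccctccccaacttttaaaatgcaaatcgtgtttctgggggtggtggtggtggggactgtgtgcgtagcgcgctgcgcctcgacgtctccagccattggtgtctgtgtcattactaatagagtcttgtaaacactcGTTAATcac
Hnf4a, upstream start, chr2:163506607-163506807, plus strand: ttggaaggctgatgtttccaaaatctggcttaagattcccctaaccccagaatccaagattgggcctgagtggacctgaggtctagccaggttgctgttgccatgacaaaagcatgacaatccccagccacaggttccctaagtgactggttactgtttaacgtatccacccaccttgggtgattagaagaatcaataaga
Hnf4a, downstream start, chr2:163546905-163547154, plus strand: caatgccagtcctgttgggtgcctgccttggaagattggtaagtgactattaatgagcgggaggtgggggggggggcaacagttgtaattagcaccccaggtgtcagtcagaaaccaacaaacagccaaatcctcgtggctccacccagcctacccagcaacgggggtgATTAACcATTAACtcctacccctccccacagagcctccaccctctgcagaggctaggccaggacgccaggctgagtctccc
The window of the downstream Hnf4a start holds the HNF1 letters 2 times, both on the opposite strand, and the Cdx2 window holds them 1 time. The window of the upstream Hnf4a start holds the GATA letters, in a match that begins at base 199 of the window and runs past the printed end. A match of letters is a description and no binding was measured.

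Depth and cell content differed between the libraries. The values of rows near detection step by whole reads, and these steps put the depth of the libraries at 57.8% (K86S) to 96.2% (W89S) of that of W83S. FPKM of Enpp7 was 129 to 669.7 in KO and 406 to 667 in WT, and such whole-gene values cannot tell whether exon 2 is lost. The 10 epithelial markers, among them Epcam, Krt8 and Vil1, were all present and summed to 8361 to 11057 FPKM in the KO mice and 7246 to 10790 FPKM in WT. W83S stood apart, since 11 gastric markers summed to 42102 FPKM there, which was 8.71% of the library, against at most 6.55 FPKM in any other library. Of these 11, 0 to 9 were listed at 0 per library. The 5 pancreatic acinar markers summed to 10232 FPKM in W83S and to 78.9 and 85.0 FPKM in the other WT libraries. In KO they summed to 13.9 to 51.2 FPKM, below all WT sums. Most of each sum came from Clps, with 73.6 FPKM in W89S and 80.5 FPKM in W90S. Of 3 acinar markers tested, Clps and Cela1 had all KO below all WT values (11.3% of rows), while Bhlha15 overlapped. Ctrb1 and Amy2a5 were not tested, and both were listed at 0 in W89S and W90S but above 0 in K79S and K82S. S100g, Cybrd1 and Slc40a1, from the proximal small intestine list given below, were also highest in W83S, at 268, 6.05 and 7.08 FPKM. The other libraries had 2.01 to 60.2, 0.122 to 0.503 and 0.529 to 5.11 FPKM of them. W83S was the highest library for 3 of 17 tested proximal genes (17.6%, beside 11.9% of rows) and the lowest for 2 (11.8%, beside 15.2%). Cybrd1 was not tested. GATA4 and GATA6 are also made in the stomach. The part of gastric content or of sampling place along the gut in the values of W83S was not tested. Tests of the 8 genes and medians of the gene lists are therefore also given without that library.

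The GATA factors were present at similar levels per length. FPKM of Gata4 was 35.6, 11.3 and 38.3 in KO (K79S, K82S, K86S), against 47.2, 25.4 and 34.3 in W83S, W89S and W90S. K82S was the lowest and W89S the next, W83S was the highest, and the genotypes overlapped. The highest value was 4.19 times the lowest, and 5.20% of the 13089 tested rows had a wider range on the log2(FPKM + 1) scale. FPKM of Gata6 was 39.9, 24.0 and 49.4 in the KO libraries and 34.1, 34.3 and 28.8 in the WT libraries, so K82S was again the lowest. Its range over the libraries was 2.06-fold, and the KO values spread to both sides of the WT values.

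Cdx1 and Cdx2 had their lowest value in W83S. FPKM of Cdx1 was 66.5, 82.8 and 50.0 in KO (K79S, K82S, K86S), against 45.2, 96.6 and 70.6 in W83S, W89S and W90S. FPKM of Cdx2 was 162, 113 and 87.8 in the KO libraries and 62.6, 157 and 88.2 in the WT libraries. For Cdx2 the 3 highest libraries were K79S, W89S and K82S, and each genotype thus held high and low values. Cdx2 spread 2.58-fold and Cdx1 2.14-fold.

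Hnf4a was the most abundant of the 8 genes. Its FPKM was 220, 235 and 154 in KO (K79S, K82S, K86S), against 129, 215 and 144 in W83S, W89S and W90S. The same 3 libraries as for Cdx2 were the highest, now with K82S at the top and W83S again at the bottom. FPKM of Hnf4g was 75.6, 62.2 and 103 in the KO libraries and 73.2, 69.0 and 78.2 in the WT libraries. Hnf4g varied least, as shown by its coefficient of variation of 18.1%, with its lowest value in K82S where Hnf4a had its highest.

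Onecut2 and Osr2 ran in nearly opposite orders over the libraries. Onecut2 was near the limit of the filter, with 0.815, 0.380 and 1.53 FPKM in KO (K79S, K82S, K86S), and 1.27, 0.0962 and 1.04 FPKM in W83S, W89S and W90S. W89S and K82S were the lowest, as for Gata4 in reverse order. FPKM of Osr2 was 35.2, 25.5 and 17.3 in the KO libraries and 12.4, 35.3 and 18.9 in the WT libraries. The 3 highest libraries of Osr2 were W89S, K79S and K82S, the same 3 as for Cdx2 and Hnf4a.

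**Figure D1:**
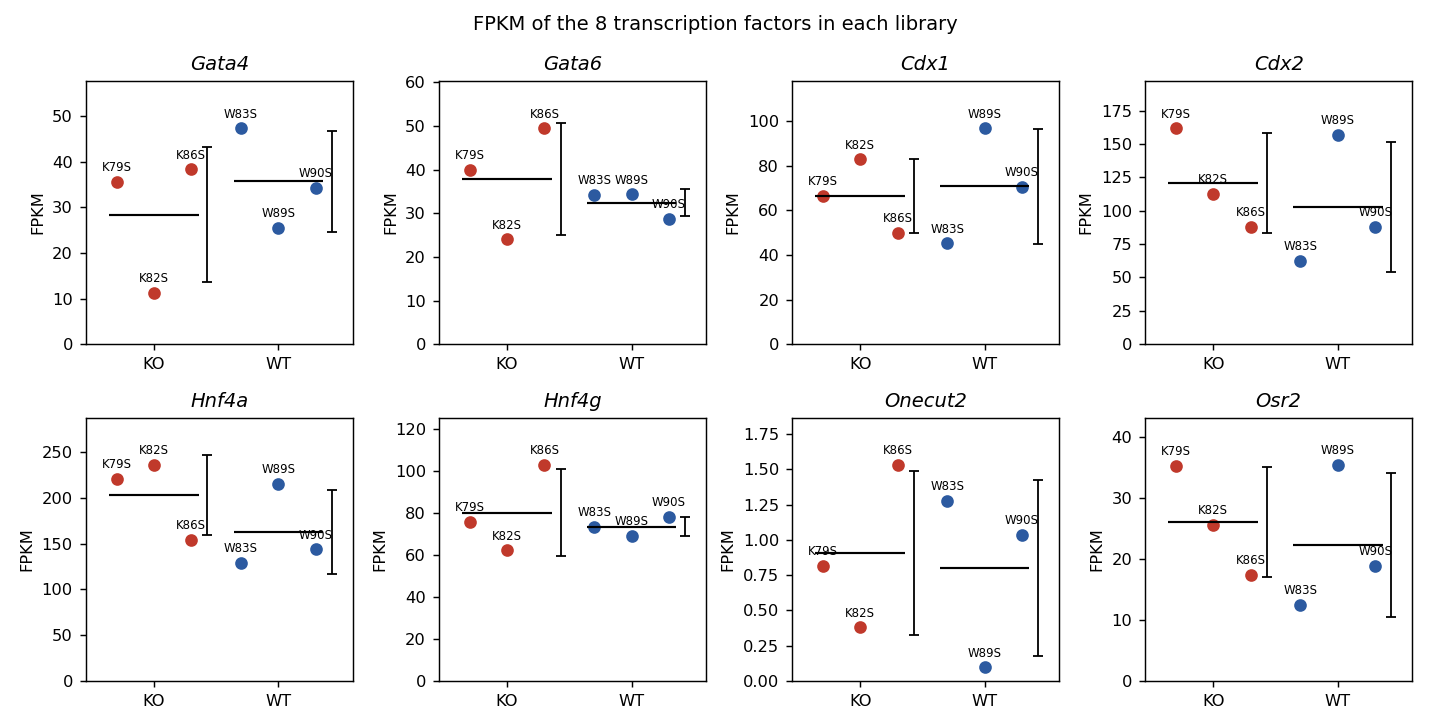
FPKM of each gene in each library (vertical axis, from 0), with KO in red and WT in blue. Points are mice, horizontal lines are means, bars at the side are SD (n = 3), and the genotypes overlap for all 8 genes.

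By mean FPKM over the 6 libraries, which is scaled to transcript length, the order was Hnf4a (183 ± 45.9 SD, n = 6), Cdx2 (112 ± 40.2), Hnf4g (76.8 ± 13.9), Cdx1 (68.6 ± 19.5), Gata6 (35.1 ± 8.87), Gata4 (32.0 ± 12.3), Osr2 (24.1 ± 9.60) and Onecut2 (0.855 ± 0.542). Hnf4a was above Cdx2, Cdx1 above Gata6, and Osr2 above Onecut2 in 6 of 6 libraries. Cdx2 and Hnf4g, Hnf4g and Cdx1, Gata6 and Gata4, and Gata4 and Osr2 are neighbours that kept their order in 4 of 6 libraries and do not differ beyond their spread. Gata6 (11052064 to 11085635, plus strand), Cdx1 (61018862 to 61036199, minus strand) and Onecut2 (64340020 to 64400987, plus strand), lie on the same chromosome, 18, in mm10. The ranges of neighbours overlapped for every pair but Osr2 and Onecut2.

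Set against its own mean on the log2(FPKM + 1) scale, each gene can be compared across libraries. In K82S, Gata4 lay at -1.31, Gata6 at -0.49 and Onecut2 at -0.37, while Hnf4a lay at 0.40 and Cdx1 at 0.32. In W83S the signs were turned for several genes, with Gata4 at 0.66 and Onecut2 at 0.35 beside Cdx2 at -0.75 and Osr2 at -0.81. K86S had Gata4, Gata6, Hnf4g and Onecut2 between 0.37 and 0.52, and Cdx1, Cdx2, Hnf4a and Osr2 between -0.40 and -0.21. W89S had Cdx1, Cdx2 and Osr2 between 0.54 and 0.62 and Onecut2 at -0.70.

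**Figure D2:**
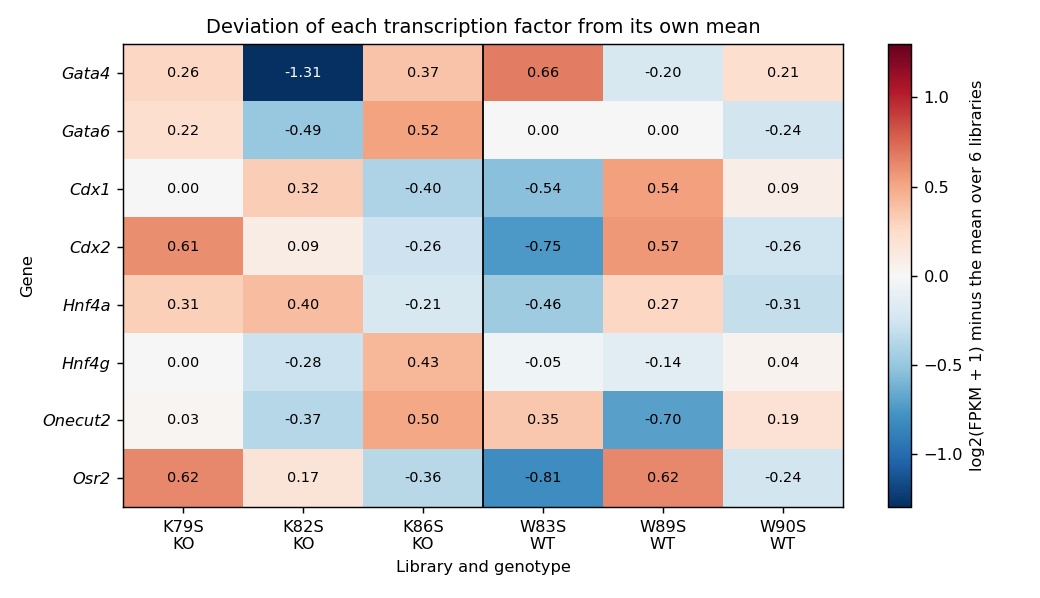
Difference of log2(FPKM + 1) from the gene's mean over 6 libraries (colour and printed value), for the 8 genes (vertical axis) in each library (horizontal axis). K82S is blue for Gata4 (-1.31) and W83S is blue for Cdx1, Cdx2, Hnf4a and Osr2 (-0.81 to -0.46).

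The comparison of KO with WT asked whether the loss of alk-SMase moved these factors. log2(FPKM + 1) was fitted with limma over all 13089 rows that reached 1 FPKM in at least 2 libraries, and a row was called at an adjusted p under 0.05 with a fold change above 1.5. All 8 genes passed the filter on low values, and 0 of 8 were called, beside 1 of 13089 rows (0.00764%), the predicted gene Gm29008. At an unadjusted p under 0.05 there were also 0 of 8, beside 12.5% of rows, and in 0 of 8 did KO and WT not overlap, beside 17.2% of rows. Without K82S there were 0 of 8 again, beside 1184 of 12764 rows (9.28%), with 1133 lower (8.88%) and 51 higher (0.4%) in KO. The KO libraries left in that fit, K79S and K86S, had 70.2% and 57.8% of the depth of W83S. W90S had 74.8% and W89S 96.2%, so every KO library was shallower than every WT library. Genotype and depth cannot be told apart in that fit. The p-values measure the spread between mice. The median log2 fold change of the 8 genes was 0.13, and that of all tested rows was -0.06. Without K82S these medians were 0.27 and -0.09, and without W83S 0.04 and -0.07.

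The intervals of the differences were wide. Gata4 averaged 28.4 ± 14.9 FPKM in the KO mice and 35.7 ± 10.97 FPKM in WT mice (SD, n = 3), which gave a log2 fold change of -0.45 (standard error 0.48, 95% interval -1.60 to 0.70, adjusted p = 0.704 from limma). Gata6 had 37.8 ± 12.9 and 32.4 ± 3.14 FPKM, a log2 fold change of 0.16 (95% interval -0.49 to 0.81). The Gata4 value rested on K82S, and without that library it turned to 0.09 (adjusted p = 0.868 from limma). Gata6 had its lowest adjusted p without K82S, at 0.165 from limma with a log2 fold change of 0.45, and it turned to -0.06 without K86S.

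Of the CDX genes, Cdx1 had 66.4 ± 16.4 FPKM in the KO mice and 70.8 ± 25.7 FPKM in the WT mice, with a log2 fold change of -0.05 (95% interval -0.83 to 0.72). Cdx2 had 121 ± 37.6 and 103 ± 48.8 FPKM, a log2 fold change of 0.29 (95% interval -0.63 to 1.21), which was -0.01 without W83S. The sign of Cdx1 was not stable, since it turned to 0.03 when the libraries were scaled to the same median and to 0.20 without W89S.

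Hnf4a had 203 ± 43.5 FPKM in the KO mice and 163 ± 46.3 FPKM in the WT mice, with a log2 fold change of 0.33 (standard error 0.27, 95% interval -0.32 to 0.98), with the lowest p of the 8 genes (adjusted p = 0.617 from limma, exact permutation test p = 0.2). It kept a positive sign under all 15 alternatives, between 0.18 and 0.55, and passed the threshold under none of them. Hnf4g had 80.2 ± 20.7 and 73.5 ± 4.64 FPKM, a log2 fold change of 0.10 (95% interval -0.42 to 0.61), the narrowest interval of the 8.

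Onecut2 had 0.908 ± 0.581 FPKM in the KO mice and 0.802 ± 0.623 FPKM in the WT mice, with a log2 fold change of 0.11 (95% interval -0.73 to 0.94), on a scale that understates the change of weak genes. With pseudocounts of 0.1 and 0.01 its log2 fold change was 0.41 and 0.60. Osr2 had 26.0 ± 8.95 and 22.2 ± 11.8 FPKM, a log2 fold change of 0.29 (95% interval -0.70 to 1.27), which was -0.05 without W83S and 0.67 without W89S. Without W83S, the library with gastric content, the log2 fold change was -0.23 for Gata4, 0.20 for Gata6, -0.34 for Cdx1, 0.18 for Hnf4a, 0.09 for Hnf4g and 0.31 for Onecut2. The adjusted p of the 8 genes from limma lay between 0.617 and 0.953. A two-sided exact permutation test of 3 mice against 3 cannot go below 0.1, and gave 0.2 to 0.9 for these genes.

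**Figure D3:**
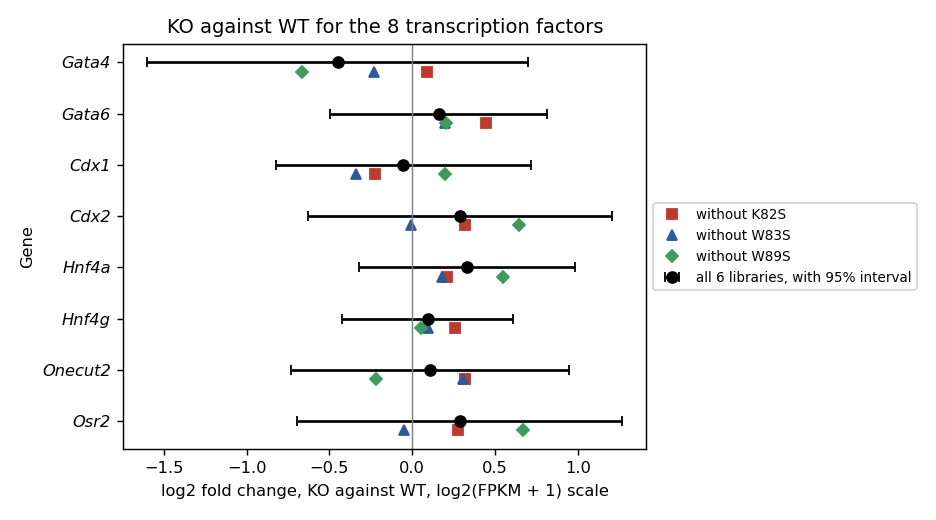
Fitted log2 fold change, KO over WT, from log2(FPKM + 1) (horizontal axis) for each gene. Black points with bars are the fit on all 6 libraries with 95% intervals, coloured symbols leave out K82S, W83S or W89S, and every interval spans 0, with Hnf4g the narrowest (-0.42 to 0.61).

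Ratios of plain FPKM between members within a library do not depend on its scaling. The tested log2 ratios, with 1 added to each FPKM, depend on it in part, most for weak genes. FPKM of Gata4 divided by that of Gata6 was 0.891, 0.470 and 0.774 in KO (K79S, K82S, K86S), against 1.38, 0.741 and 1.19 in W83S, W89S and W90S. W83S and W90S thus held more Gata4 than Gata6 and the other 4 libraries held less. The mean log2 ratio, with 1 added to each FPKM, was -0.52 ± 0.45 in KO and 0.09 ± 0.46 in WT (SD, n = 3), a difference of -0.61 (exact permutation test, two-sided, p = 0.3, adjusted p = 0.6 over 4 ratios). It was -0.43 without W83S and -0.36 without K82S. Cdx1 was below Cdx2 in 6 of 6 libraries, at a ratio of 0.411 to 0.8, and the log2 ratio differed by -0.35 between KO and WT (exact permutation test, p = 0.3, adjusted p = 0.6), with -0.13 without K79S and -0.54 without K82S.

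Hnf4a exceeded Hnf4g in 6 of 6 libraries, by 2.91 (K79S), 3.79 (K82S) and 1.5 (K86S) times and by 1.76, 3.12 and 1.83 times in W83S, W89S and W90S. The libraries thus fell at about 3 or more (K79S, K82S and W89S) or below 2 (K86S, W83S and W90S), and both sides held KO and WT mice. The difference of the mean log2 ratio was 0.24 (exact permutation test, p = 0.8, adjusted p = 0.9). FPKM of Onecut2 divided by that of Osr2 was 0.00272 in W89S and 0.103 in W83S, the lowest and highest libraries. For so weak a gene the 1 added to each FPKM narrows the log2 ratio. With it, the log2 ratio of Onecut2 to Osr2 ran from -5.05 in W89S to -2.56 in W83S. It was -4.32 in K79S, -4.26 in K82S, -2.86 in K86S and -3.29 in W90S. It was again lowest in W89S, K79S and K82S, and KO and WT differed by -0.18 (exact permutation test, p = 0.9, adjusted p = 0.9).

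**Figure D4:**
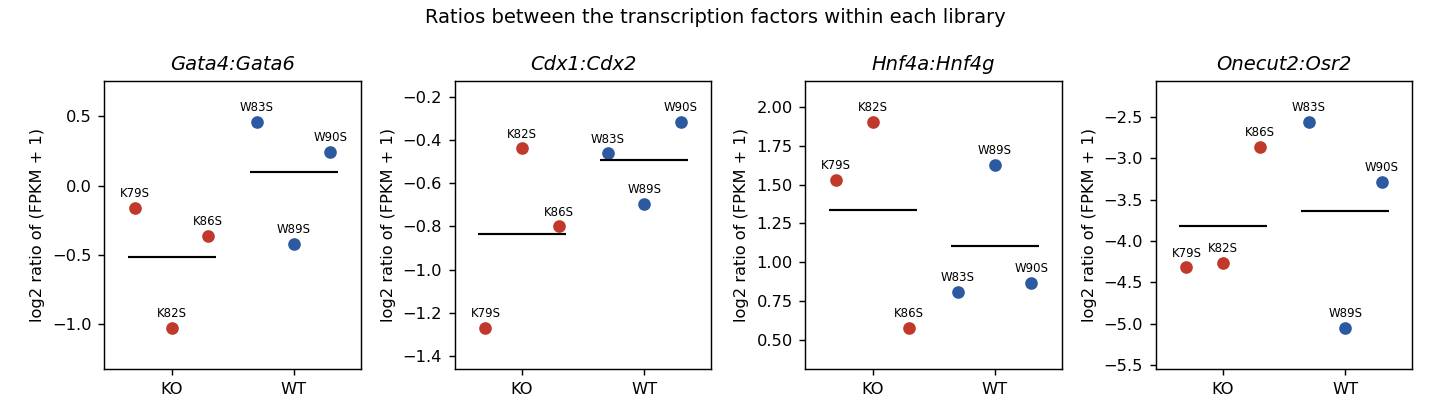
log2 ratio of FPKM + 1 between paired genes within each library (vertical axis), KO in red and WT in blue, with lines at the means. Hnf4a:Hnf4g is 1.53 to 1.90 in K79S, K82S and W89S and 0.58 to 0.87 in the other 3 libraries.

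The genes nearest in pattern were sought among the 12093 other named genes that passed the filter, by Pearson correlation over the 6 libraries on the log2(FPKM + 1) scale. Such values over 6 libraries that share their differences in depth are a description only. Osr2 was the second nearest gene to Cdx2 (r = 0.996), and Cdx2 was the nearest to Osr2. The nearest to Cdx2 was Sh3gl2 (r = 0.996). Slc46a1, the proton-coupled folate transporter of the proximal small intestine, was the nearest to Onecut2 (r = 0.987), with 58.8, 25.4 and 87.6 FPKM in K79S, K82S and K86S, while W83S had 76.2 FPKM, W89S 17.2 FPKM and W90S 57.1 FPKM. The nearest to Gata4 were Galnt2 (r = 0.995) and Abcb9 (r = 0.986), to Gata6 Zfp652 (r = 0.991) and Gm12220 (r = 0.988), and to Cdx1 Mocs3 (r = 0.990) and L1cam (r = 0.988). Mta3 (r = 0.994) and Sp2 (r = 0.992) were the nearest to Hnf4a, and Mdm2 (r = 0.999) and Slc10a5 (r = 0.991) to Hnf4g. Maco1 (r = 0.986) followed for Onecut2 and Polr3c (r = 0.996) for Osr2.

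Genes whose place along the small intestine is known were set beside the factors. Of 20 proximal genes 18 were named and 17 tested, and 0 were called in either direction between KO and WT (lowest adjusted p = 0.46 from limma), with a median log2 fold change of -0.10. Of 20 distal genes 16 were named and tested, and 0 were called (lowest adjusted p = 0.393 from limma), with a median of 0.43. Without K82S the medians were 0.02 for the proximal and 0.11 for the distal genes, beside -0.09 for all rows, and without W83S they were 0.03 and 0.34, beside -0.07. The sign of the proximal median thus turned when either library was left out. The unadjusted p was under 0.05 for 0 of 17 proximal and 3 of 16 distal genes, beside 12.5% of rows. All KO values lay above all WT values for 1 proximal and 3 distal genes (5.9% of rows) and below for 0 proximal genes and 1 distal gene (11.3% of rows). Fabp6, Slc10a2 and Fgf15, which define the ileum, could not be placed and were not analysed here.

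The sums of these genes differed between libraries of the same genotype. The proximal genes summed to 16633 FPKM in K82S, 20437 FPKM in W89S and 25120 FPKM in K79S, and to 27292 to 31903 FPKM in the other 3 libraries. The distal genes summed to 6024 FPKM in K82S, 5067 FPKM in W89S and 4640 FPKM in K79S, and to 2814 to 3128 FPKM in the other 3 libraries. The 3 libraries with the highest distal sum were those with the highest Cdx2, Hnf4a and Osr2, and K82S and W89S were those with the lowest Gata4 and Onecut2. K82S was the lowest library for 10 of 17 proximal genes (58.8%, beside 13.1% of all tested rows) and the highest for 9 of 16 distal genes (56.2%, beside 22.1%). Libraries were read in order here and not regrouped for a test.

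Of the proximal genes with the highest levels, Apoa1, an apolipoprotein, had 11160 to 14702 FPKM and varied little. Apoa4, an apolipoprotein of chylomicrons, measured 5807, 2820 and 10434 FPKM in KO (K79S, K82S, K86S) and 6786, 3340 and 6996 FPKM in W83S, W89S and W90S. Fabp1, which binds fatty acids, had 1576, 972 and 3765 FPKM in the KO mice and 3834, 1255 and 5415 FPKM in WT. Both of these were lowest in K82S and W89S. Lct, the lactase gene, had 456, 76.3 and 490 FPKM in the KO mice and 243, 163 and 285 FPKM in WT, and is named here after its values were seen.

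Of the distal genes with the highest levels, Clca4b and Muc3, a membrane mucin, were higher in every KO library than in every WT library, at 950 to 1069 against 793 to 796 FPKM and at 894 to 1380 against 612 to 786 FPKM, with adjusted p = 0.407 and 0.393 from limma. Guca2a, the guanylin gene, had 819, 1012 and 404 FPKM in the KO mice and 389.6, 1880 and 600.5 FPKM in WT. Slc51a and Slc51b, the subunits of the bile acid exporter at the base of enterocytes, are named after their values were seen. Slc51a measured 421, 885 and 169 FPKM in KO (K79S, K82S, K86S) and 177, 449.6 and 219 FPKM in W83S, W89S and W90S. Slc51b had 216, 715 and 121 FPKM in the KO mice and 156, 404 and 190.2 FPKM in WT, again with K82S and W89S at the top. Other distal genes, named likewise, ran the other way. K82S was the lowest library for 2 of 16, Gsta4 (31.3 FPKM) and Mbl2 (3.68 FPKM). Enpp3 was lowest in W89S and K82S, at 39.6 and 43.4 FPKM. Gsta4 was the distal gene with all KO below all WT values, at 31.3 to 66.8 against 67.6 to 408 FPKM.

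**Figure D5:**
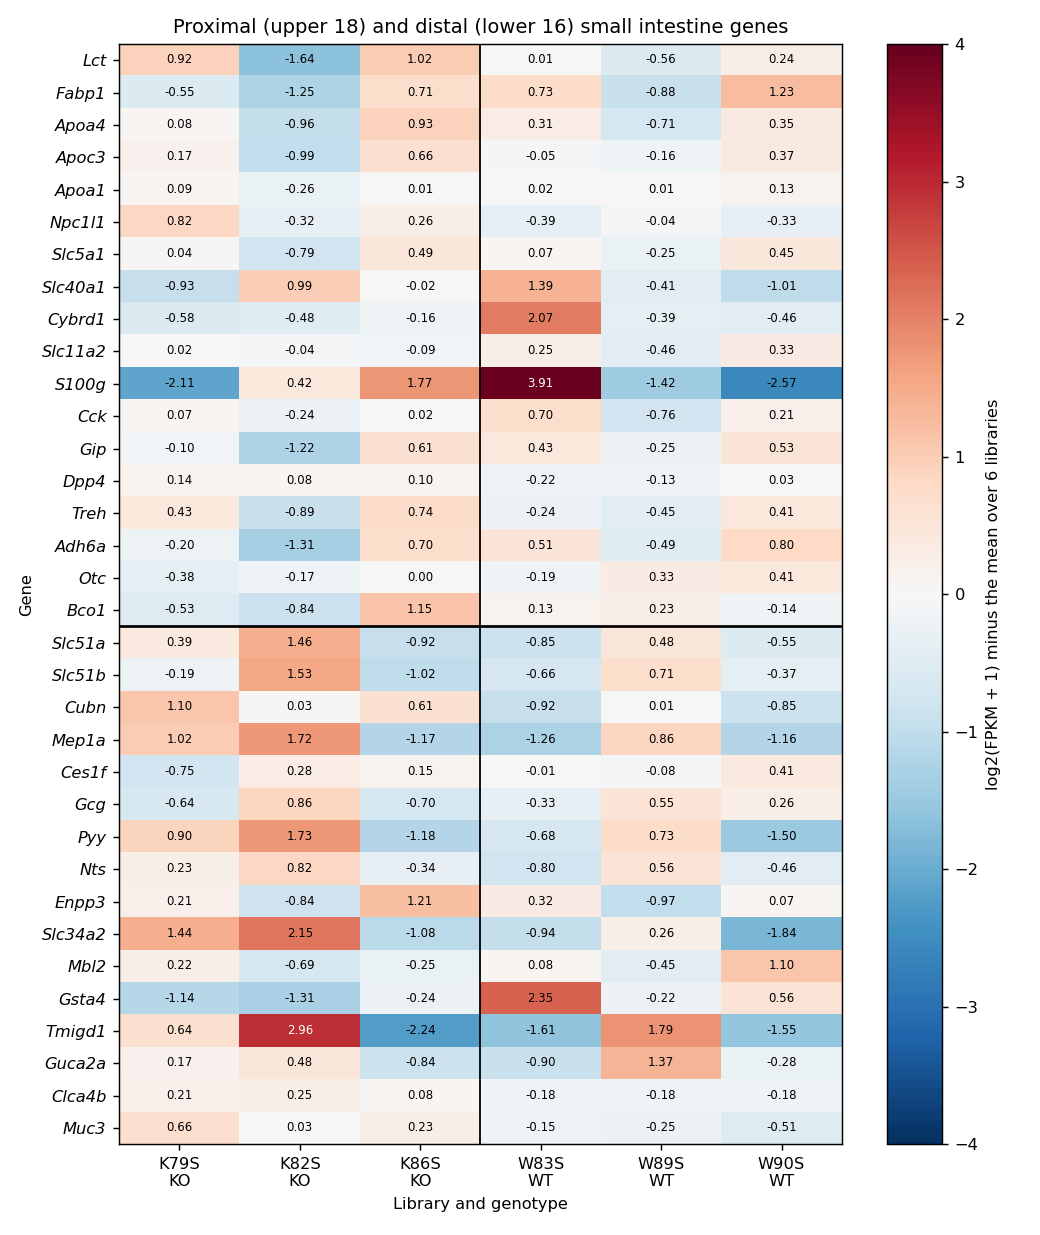
Difference of log2(FPKM + 1) from the gene's mean over 6 libraries (colour and printed value) for 18 proximal genes (above the line) and 16 distal genes (below it). K82S holds the lowest values of Lct, Fabp1 and Apoa4 and the highest of Slc51a and Slc51b. It also holds the lowest values of the distal genes Gsta4 and Mbl2.

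Genes linked to HNF4 and CDX2, mostly of enterocytes, from a list of 24 symbols, were named and tested for 23, and 0 of these were called. The list names sucrase-isomaltase as Sis and again as Si. Of the 23, 18 had a log2 fold change above 0, with a median of 0.26 (0.17 without W83S, 0.43 without K82S), and 4 had KO values wholly above the WT values (5.9% of rows). The 4 were Anpep, Cdhr2, Cdhr5 and Muc2, a goblet cell mucin gene with 7.03 FPKM in W89S and 68.3 to 160 FPKM elsewhere. Fabp2, Anpep and Krt20 had the highest levels. Anpep, a brush border aminopeptidase, had 3977, 2249 and 2384 FPKM in the KO mice and 1504, 1783 and 1867 FPKM in the WT mice, with a log2 fold change of 0.70 (adjusted p = 0.393 from limma). Without K82S, Ace, which encodes a peptidase of the brush border, was called higher in KO with a log2 fold change of 1.26. It was 1 of 23, beside 0.4% of rows called higher and 9.28% called in either direction. In that fit every KO library was shallower than every WT library. Sums of this list were 18038 to 26639 FPKM in the KO mice and 17620 to 24493 FPKM in WT, while epithelial markers spanned the ranges given above. The part of enterocyte share in these sums was not tested.

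Among 24 other intestinal transcription factors 23 were named and tested, and 0 were called (2 at an unadjusted p under 0.05, beside 12.5% of rows), with 15 above 0 and 8 below and a median of 0.07 (0.01 without W83S). Creb3l3, Klf4 and Esrra had the highest levels. Creb3l3, a regulator of lipid genes, measured 234, 113 and 292 FPKM in KO (K79S, K82S, K86S) and 172, 184 and 212 FPKM in W83S, W89S and W90S, with its lowest value in K82S. Klf4, a factor of differentiated cells, had 158 to 214 FPKM in the KO mice and 94.9 to 168 FPKM in WT, and Esrra had 107 to 166 and 112 to 158 FPKM. Prdm1 and Tcf7l2, named after their values were seen, were the 2 of 23 with all KO above all WT values (5.9% of rows), with log2 fold changes of 0.72 and 0.41 (adjusted p = 0.393 from limma for both). Nr1h4, the bile acid receptor, had 13.5, 61.8 and 7.44 FPKM in the KO mice and 9.74, 32.4 and 13.9 FPKM in WT, named likewise, with K82S and W89S the highest.

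Of 19 factors of the neighbouring regions 4 could be named and 3 were tested, and 0 were called. Pdx1, which marks the duodenum and the antrum of the stomach, had 5.44 FPKM in W83S, the library with gastric markers, and 0.05 to 1.05 FPKM elsewhere. Nkx6-3, of the antrum, reached 3.33 FPKM in W83S and 0.0485 FPKM in K82S, with the remaining 4 libraries listed at 0. Nkx2-3 had 1.71, 1.74 and 5.72 FPKM in KO (K79S, K82S, K86S) and 1.15 to 1.53 FPKM in WT (adjusted p = 0.435 from limma). It was the 1 of 3 with all KO above all WT values (5.9% of rows).

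The 7 crypt markers summed to 19.2 to 45.1 FPKM in the KO mice and 47.3 to 93.0 FPKM in WT, and 0 of 7 were called (4 at an unadjusted p under 0.05, beside 12.5% of rows). Of these 7, 2 had all KO below all WT values (11.3% of rows), Smoc2 and Olfm4, and Olfm4 held most of the sum in each WT library, with 3.98 to 20.1 FPKM in the KO mice and 24.8 to 61.3 FPKM in WT. The 9 leukocyte markers summed to 90.1 to 239 FPKM in the KO mice and 101 to 104 FPKM in WT, most of it from Jchain, and 4 of 9 had an unadjusted p under 0.05. The T cell genes Cd3e, Cd3g and Cd8a and the macrophage gene Csf1r, 4 of 9, had all KO above all WT values (5.9% of rows). Smooth muscle markers (5 tested) summed to 33.1 to 52.0 and 30.1 to 59.9 FPKM, fibroblast markers (3) to 3.85 to 10.3 and 3.19 to 5.39 FPKM, and the 1 endothelial marker, Plvap, had 4.74 to 33.8 and 3.19 to 10.1 FPKM. Colon markers (6) summed to 137 to 231 and 123 to 170.2 FPKM, and enteroendocrine markers (4) to 126 to 202 and 159 to 189 FPKM. In each of these marker lists 0 genes were called on all 6 libraries. Without K82S, Cd3e was called higher in KO (1 of 9 leukocyte markers, beside 0.4% of rows). Mki67 (1 of 7 crypt markers) and Smtn (1 of 5 smooth muscle markers) were called lower in KO, beside 8.88% of rows. Genotype and depth cannot be told apart in that fit, as given above. The part of these cells in the levels of the 8 factors was not tested.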

How the data were processed

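RNA of the middle small intestinal mucosa of 3 KO and 3 WT mice was sequenced as single-end reads. After trimming by trim-galore, the authors aligned reads to mm10 (HISAT2), estimated gene levels (StringTie) and deposited them as FPKM, 1 value per gene and library. Versions, annotation, strand handling and any scaling of these values are not given in the sources used here, and 0 columns of values were left unmapped.

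FPKM are not counts, so counts of reads behind a value are unknown and no interval for counting error was given. Of 22700 identifiers 22680 had a symbol in GENCODE M21. Identifiers were ranked by K79S and rows by W83S and joined with fixed offsets along the ranking, and 10298 rows outside them stayed unnamed but were tested. The offsets, the 8 genes and the gene lists were chosen with earlier results of these data known. Rows under 1 FPKM in more than 4 libraries were left out. limma 3.58.1 (R 4.3.3) was applied to log2(FPKM + 1) (mean-variance trend, Benjamini-Hochberg adjustment over 13089 rows). Exact permutation tests used scipy 1.17.1. On data simulated for the KO against WT fit over 13089 rows, 156 of 200 rows changed by 2 on the log2 scale were called with each row's own spread, and 8 unchanged rows. The 8 genes were named in full. Of each other list, the 3 genes with the highest mean FPKM and any called gene were named, marker lists of other cells were given by their sums, and for each of the 8 genes the 2 nearest in pattern, and genes named otherwise were chosen after their values were seen. Alternatives were other pseudocounts, filters, scalings, array weights, no trend and leaving out each library. A gene of the neighbouring-region list is not reported here.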

Additional observations from a re-analysis of the deposited data

How the results depend on the processing

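The 8 factors were called under none of 15 alternatives, with adjusted p between 0.165 and 0.999 from limma over 119 fits (Onecut2 was not tested with a filter at 2 FPKM). No sign but those given here turned. With pseudocounts of 0.1 and 0.01, 0 rows were called, and with array weights 2, against 1 (at an unadjusted p under 0.05 there were 1636, 1619 and 3334, against 1638). Leaving out each library in turn gave 0 to 1184 called rows, 1184 without K82S, 1 without W89S and 0 without any other. In the same way the log2 fold change ranged from -0.75 to 0.092 for Gata4 (0.092 without K82S), -0.059 to 0.45 for Gata6 (-0.059 without K86S), -0.34 to 0.20 for Cdx1 (0.13 without K86S, 0.20 without W89S), -0.0096 to 0.65 for Cdx2 (-0.0096 without W83S), -0.10 to 0.26 for Hnf4g (-0.10 without K86S), -0.22 to 0.32 for Onecut2 (-0.12 without K86S, -0.22 without W89S) and -0.047 to 0.67 for Osr2 (-0.047 without W83S). Cdx1 became 0.027 with libraries scaled to the same median, which moved the median of all rows from -0.06 to 0.02, and 0.13 with quantile normalization, which moved it to 0.03. The log2 ratio of Hnf4a to Hnf4g differed by -0.048 to 0.62 (-0.048 without K82S). That of Onecut2 to Osr2 differed by 0.11 and 0.30 with pseudocounts of 0.1 and 0.01, and by -0.89 to 0.36 without a library, with 0.07 without K79S, 0.04 without K82S and 0.36 without W83S. The causes were not tested. No paired analysis was possible because the labels give no replicate numbers and, although the study calls the mice matched, no source used here says which KO mouse belongs with which WT mouse. With 3 mice a group and unknown read counts, differences within the intervals given could not be detected. The intervals are not adjusted for the number of rows, so differences beyond them could also go uncalled. All values rest on the naming of rows by rank.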
